A study of Homo sapiens with 33 samples.

Results

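UACC-257 is a human melanoma cell line, and the series profiled by CUT&Tag where an HA-tagged protein sits on its chromatin. The 2 groups compared here are labelled rep217A and rep263A. They account for 6 of the 33 deposited peak lists, but in each group the lists of replicates 2 and 3 are identical, so 4 of 31 distinct libraries were compared (n = 2 in each group). Every library of both groups carries the same label for genotype, MITF knockdown, and the same treatment, doxycycline. The labels give the name of each group only, and they do not say what rep217A or rep263A stands for. WT and Empty are group names in the same series, with 3 libraries each. Whether the replicates were separate cultures is not stated, so the p-values measure the spread between these libraries, which may be technical. The question the design poses is which chromatin regions the proteins of the 2 groups occupy most strongly.

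MITF is a basic helix-loop-helix leucine-zipper transcription factor that acts as a master regulator of the melanocyte lineage. Proteins of this family bind as dimers to E-boxes, short DNA words that begin with CA and end with TG, and MITF with its relatives TFEB, TFE3 and TFEC prefers CACGTG and CATGTG with a T before the core. In melanocytes MITF drives pigment genes such as TYR and PMEL. The same family controls lysosome and autophagy genes, many of which carry such words near their start. In CUT&Tag an antibody, here against the HA tag, tethers a transposase that cuts and tags the DNA around the bound protein.

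The lists hold the authors' peaks with their own fold over local background and −log10 q. Peaks were ranked within a library by −log10 q, and the strongest 10000 were called strong. The compared value is log2(20000/rank), with ranks past 20000 set to 20000. A rank difference is the mean of that value in rep217A minus that in rep263A, so a positive one means a place nearer the top in rep217A.

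Depth was not the same in the 2 groups. The background pileup, the number of reads stacked at a place without a peak and so a measure of relative depth, was 0.276 and 0.348 in the rep217A libraries and 0.427 and 0.487 in the rep263A libraries. The group means differed 1.46-fold. Peaks with −log10 q of at least 5 numbered 37906 and 41352 in rep217A, and 70251 and 75340 in rep263A. The groups did not overlap in this number (39629 ± 2437 against 72796 ± 3598, SD, n = 2, exact permutation test, two-sided p = 0.333). With 2 libraries against 2, 0.333 is the smallest p that the 6 arrangements can give, and it is the p of every exact test below.

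The promoter sequences that follow show the plainest difference between the groups. They come from RefSeq (GRCh38.p14) and are the 250 bases before a gene's start, 5′ to 3′ on the gene's strand. For each direction the 5 promoter windows under the called regions of largest rank difference were taken, 1 window a region. Called regions with no promoter window available were passed over. Among these was the region near ESCO1, which had the largest rank difference for rep217A. All 5 windows of higher rank in rep217A held TCAGCTGA, a word with a CAGCTG core that reads the same on both strands. None of the 5 windows of higher rank in rep263A did. Capitals mark TCAGCTG, and also the words CACGTG and CGCGTGA, on either strand.

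Promoters of higher rank in rep217A are shown first, with ATP6V0D1 and ATP6V1G1 (subunits of the proton pump that acidifies lysosomes), MAF (a basic leucine-zipper transcription factor) and SLC66A1 (a lysosomal exporter of cationic amino acids).
ATP6V0D1 (chr16:67481158-67481407, minus strand): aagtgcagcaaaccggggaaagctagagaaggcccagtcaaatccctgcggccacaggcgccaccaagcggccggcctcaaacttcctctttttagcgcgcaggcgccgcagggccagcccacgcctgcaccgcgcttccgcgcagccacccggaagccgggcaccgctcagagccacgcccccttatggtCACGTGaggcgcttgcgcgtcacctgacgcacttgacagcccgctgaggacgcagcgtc
MAF (chr16:79600738-79600987, minus strand): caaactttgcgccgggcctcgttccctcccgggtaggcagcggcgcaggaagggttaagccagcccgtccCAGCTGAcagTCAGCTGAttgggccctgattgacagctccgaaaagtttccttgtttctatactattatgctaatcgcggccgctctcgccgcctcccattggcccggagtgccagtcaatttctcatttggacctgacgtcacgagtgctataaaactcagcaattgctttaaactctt
SLC66A1 (chr1:19312076-19312325, plus strand): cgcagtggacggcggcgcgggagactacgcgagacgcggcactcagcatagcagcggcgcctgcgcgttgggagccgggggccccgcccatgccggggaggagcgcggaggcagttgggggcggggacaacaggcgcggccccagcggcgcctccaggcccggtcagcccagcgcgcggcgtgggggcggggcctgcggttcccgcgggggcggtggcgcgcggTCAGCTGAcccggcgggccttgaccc
ATP6V1G1 (chr9:114587519-114587768, plus strand): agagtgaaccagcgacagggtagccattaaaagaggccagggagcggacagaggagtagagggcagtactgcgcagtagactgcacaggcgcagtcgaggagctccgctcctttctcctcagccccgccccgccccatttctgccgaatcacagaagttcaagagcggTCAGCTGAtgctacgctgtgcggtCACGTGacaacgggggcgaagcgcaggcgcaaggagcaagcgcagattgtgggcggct
In ATP6V0D1, and in TOLLIP, an adaptor of Toll-like receptor signalling and endosomal sorting, TCAGCTGA lay at the gene's start, not within the 250 bases. ATP6V1G1 held a further TCAGCTGA there, past the end of the stretch above. These sites are given with 10 bases on each side.
ATP6V0D1 (chr16:67481142-67481169, minus strand): ggacgcagcgTCAGCTGAcctggggagt
ATP6V1G1 (chr9:114587762-114587789, plus strand): ggcggctgtgTCAGCTGAcccaaggggc
TOLLIP (chr11:1309608-1309635, minus strand): gcggcggctgTCAGCTGActgtggcggc
The site of ATP6V0D1 runs from base -2 to base 6 around the start, that of ATP6V1G1 from base 4 to base 11 and that of TOLLIP from base 8 to base 15.

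Promoters of higher rank in rep263A are shown to set against them, with CLN6 (an endoplasmic reticulum protein needed for lysosome biogenesis), ALK (a receptor tyrosine kinase) and HINFP (a transcription factor of histone H4 genes).
CLN6 (chr15:68229729-68229978, minus strand): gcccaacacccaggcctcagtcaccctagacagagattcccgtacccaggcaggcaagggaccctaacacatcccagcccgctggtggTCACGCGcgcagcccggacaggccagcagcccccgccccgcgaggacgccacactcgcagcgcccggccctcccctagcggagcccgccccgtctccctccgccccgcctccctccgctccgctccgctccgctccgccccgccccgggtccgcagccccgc
ALK (chr2:29223824-29224073, minus strand): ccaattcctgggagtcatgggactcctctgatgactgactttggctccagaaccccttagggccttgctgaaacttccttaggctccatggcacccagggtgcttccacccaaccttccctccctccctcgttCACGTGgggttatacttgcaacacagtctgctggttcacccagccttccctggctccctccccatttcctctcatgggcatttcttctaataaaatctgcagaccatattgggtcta
HINFP (chr11:119121330-119121579, plus strand): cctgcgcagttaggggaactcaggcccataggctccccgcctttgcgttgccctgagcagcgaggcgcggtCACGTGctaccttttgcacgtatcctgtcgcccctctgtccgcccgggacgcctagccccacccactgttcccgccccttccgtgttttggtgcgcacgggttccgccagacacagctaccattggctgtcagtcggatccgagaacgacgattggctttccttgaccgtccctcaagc
CLN6 held CGCGTGA, and ALK and HINFP held CACGTG. In the other direction CACGTG stood in 2 of the 5 windows as well, those of ATP6V0D1 and ATP6V1G1. The windows of DYRK1A and PPP1R12B, the other two of the 5, held none of the 3 words.

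The ranks behind these sequences lay far apart. The region at the ATP6V0D1 start (chr16:67480418-67481521) ranked 27 and 16 in rep217A and 1474 and 2384 in rep263A, with a rank difference of 6.49 (SE 0.42, limma adjusted p = 0.00182). ATP6V1G1 (chr9:114587195-114588301) ranked 9 and 12 against 458 and 660. SLC66A1 (chr1:19311623-19312997) ranked 58 and 68 against 3599 and 5623, and TOLLIP (chr11:1308954-1310208) ranked 66 and 74 against 5421 and 2525. MAF (chr16:79599808-79601734) ranked 208 and 251 in rep217A, but 16522 in 1 rep263A library and beyond 20000 in the other. MAF was low in WT too, at ranks 19688, 10966 and 11073. In the other direction the CLN6 region (chr15:68229079-68230202) ranked 11141 and 7784 in rep217A and 69 and 96 in rep263A, with a rank difference of -6.84 (SE 0.36, limma adjusted p = 0.00182). ALK (chr2:29223760-29224722) ranked 2586 and 2370 against 40 and 78, and HINFP (chr11:119121088-119121933) 2770 and 1469 against 35 and 65. In all 8 the libraries of the 2 groups did not overlap, as in every called region. The groups did not overlap in 4300 of the 7576 regions with no call either.

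The words were then counted in all promoter windows in the RefSeq table, 22132 windows of 300 bases (250 before to 50 after a start) from 15812 protein-coding symbols. No window of 1 chromosome, that numbered 8, is in the table. Genes of other chromosomes lack a window too, ESCO1 among them, as the protein-coding genes used here numbered 19974. Of these windows, 863 lay under a region of higher rank in rep217A, 895 under one of higher rank in rep263A, and 3305 under a region with no call. Windows of nearby starts can overlap and share a region, so 1 site can count more than once. Only 608 regions higher in rep217A and 667 higher in rep263A overlapped a promoter window. TCAGCTG stood in 165 of the 863 windows of higher rank in rep217A (19.1%) and in 14 of the 895 of higher rank in rep263A (1.56%). The share was 4.18% under regions with no call and 5.98% over all promoters. The full TCAGCTGA stood in 59 windows (6.84%) against 2 (0.223%), with 0.863% over all promoters. The words were picked after the windows had been sorted by rank difference, so these shares describe the 4 libraries and were not tested.

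CACGTG, the core that MITF prefers, went the other way. It stood in 179 windows of higher rank in rep263A (20.0%) and in 82 of higher rank in rep217A (9.50%). The share was 12.3% under regions with no call and 8.34% over all promoters. With a T before the core, TCACGTG stood in 12.7% in rep263A and 6.72% in rep217A (all promoters 4.44%). The full TCACGTGA did not go that way, with 23 windows (2.57%) in rep263A and 27 (3.13%) in rep217A (all promoters 1.27%). Nor did TCATGTG, at 2.57% in rep263A and 2.67% in rep217A (all promoters 2.31%). CGCGTGA, which is not an E-box, stood in 100 windows of higher rank in rep263A (11.2%) and in 17 of higher rank in rep217A (1.97%), and in 488 of all 22132 promoter windows. CTCGTGA likewise stood in 7.93% against 1.27%, and in 1.46% of all promoters. CACCTGA, an E-box with another core, followed TCAGCTG instead, at 1.23% in rep263A and 8.46% in rep217A, and in 3.82% of all promoters.

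The 10 distinct E-boxes of the form CANNTG (both strands) did not move together. CAGCTG stood in 26.7% of the windows of higher rank in rep217A, in 10.7% of those of higher rank in rep263A and in 3992 of all 22132 windows. CACCTG stood in 171 windows against 107 (all promoters 20.0%). CATGTG, the second core of MITF, stood in 8.11% against 8.83% (all promoters 8.93%). CAACTG stood in 10.4% against 7.60% (all promoters 10.4%) and CATCTG in 11.9% against 6.93% (all promoters 12.2%). Words of other factor families were counted beside them. GGGCGG stood in 74.0% and 77.3% (all promoters 56.3%), ATTGG in 43.3% and 42.1% (34.6%) and CCGGAAG in 19.5% and 18.3% (12.8%). TGACGTCA stood in 4.75% and 2.57% (2.26%) and TGACTCA in 4.63% and 3.69% (4.01%). Windows of higher rank in rep217A held 25.2 CG pairs on average and those of higher rank in rep263A 29.1, and the part of base composition in the shares was not tested. Among all 8191 words of 7 letters seen in either set (each pooled with its other strand), TCAGCTG had the largest excess in rep217A. The largest excess in rep263A belonged to the CG-rich GCGCGCC, which stood in 30.4% against 16.9%.

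The same counts can be read by the word rather than by the call. Their direction is then fixed by the counts above, so this is no separate result. Windows that share a region are again each counted, so these windows are not independent. Of 67 windows that hold TCAGCTGA and lie under a tested region, 59 were higher in rep217A and 2 in rep263A, with a median rank difference of 2.98. Of 317 that hold TCAGCTG, 165 were higher in rep217A and 14 in rep263A (median 1.23). Of 230 that hold CGCGTGA, 17 were higher in rep217A and 100 in rep263A (median -0.86). For 666 windows with CACGTG the numbers were 82 and 179 (median -0.35). The 41 windows that hold both TCAGCTG and CACGTG had 21 calls for rep217A and 2 for rep263A. Over all 5063 windows under a tested region the calls were 863 and 895, with a median of 0.03. When peaks were ranked by fold, 33 of 60 windows with TCAGCTGA were higher in rep217A and 0 in rep263A (median 2.62), while the medians of CACGTG and CGCGTGA turned to 0.40 and 0.15, beside 0.52 over all windows.

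**Figure D1:**
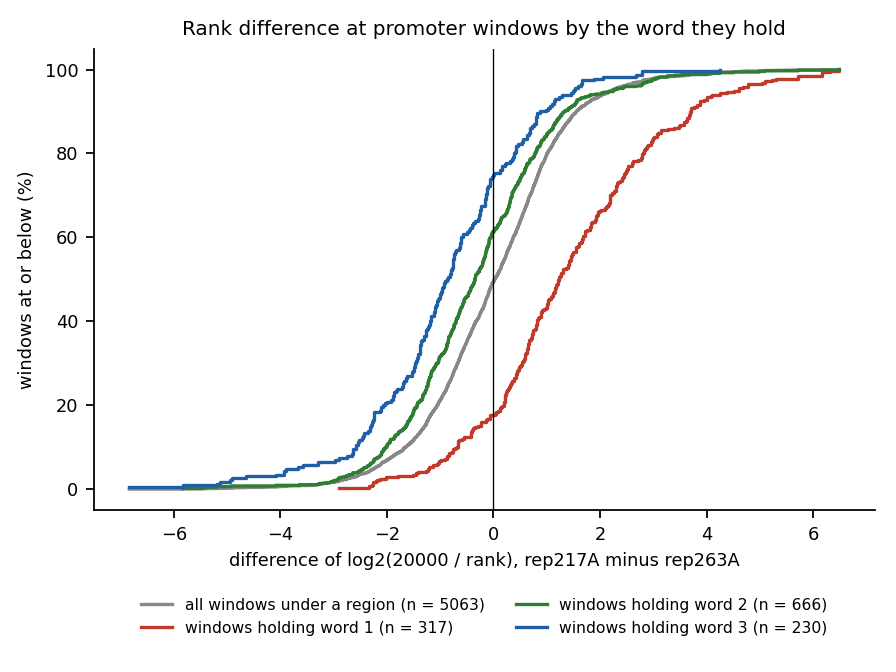
Share of promoter windows (y axis, percent) at or below a rank difference (x axis, rep217A minus rep263A on the log2 scale), for all windows under a tested region and for those that hold word 1 (TCAGCTG), word 2 (CACGTG) or word 3 (CGCGTGA). The curve of word 1 lies to the right of the others and that of word 3 to the left, with medians of 1.23 and -0.86.

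The words were also counted without the region calls, over all promoters with a strong peak. This count rests on the same ranks, and the words shown were chosen with results of these libraries known, so the shares of single words are a description with no test. Of the promoters with a strong peak, 7.30% and 7.76% held TCAGCTG in rep217A, and 4.42% and 4.70% did in rep263A. The groups did not overlap (7.53% ± 0.32 against 4.56% ± 0.20, SD, n = 2). Over the other 29 libraries of the series, rep263A included, the share ran from 3.97% to 4.95%, so both rep217A libraries lay above every one of them. For CGCGTGA the shares were 3.86% and 4.00% in rep217A and 5.65% and 5.39% in rep263A. For CACGTG the group values were 12.7% ± 0.45 against 14.7% ± 0.22 (SD, n = 2). WT stood at 17.6% ± 0.18 and Empty at 10.7% ± 0.58 (SD, n = 3). In the measure set for this comparison, promoters that hold CACGTG or CATGTG, rep217A had 17.6% and 18.5% and rep263A 20.2% in both libraries (exact permutation p = 0.333).

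**Figure D2:**
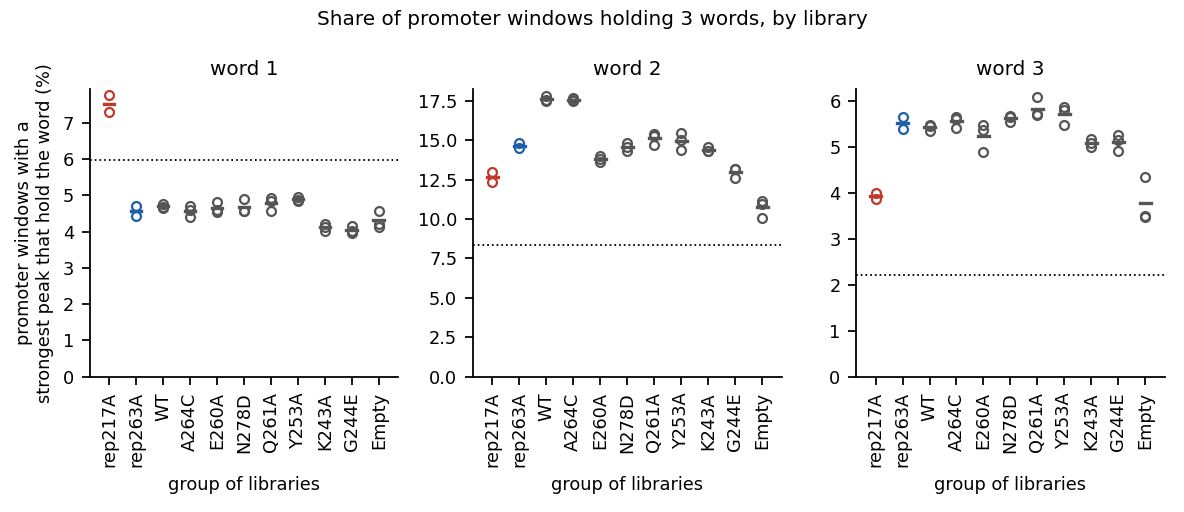
Share of the promoter windows with a strong peak (y axis, percent) that hold word 1 (TCAGCTG), word 2 (CACGTG) or word 3 (CGCGTGA), with 1 circle per distinct library, a bar for the group mean and a dotted line for all promoters. For word 1 both rep217A libraries lie above all the others. For word 3 they lie among the Empty libraries and below those of the remaining groups.

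The words did not lie nearer to the peak summits than the common promoter words ATTGG and GGGCGG. That comparison decides little, as these 2 are shorter and stood in more of the rep217A windows (43.3% and 74.0%, TCAGCTG 19.1%). In rep217A the median distance from TCAGCTG to the summit inside the window was 41 and 43 bases in the 2 libraries. It was 36 and 41 bases for ATTGG and 23.5 and 22.5 bases for GGGCGG. In rep263A the distance from CACGTG was 57.5 and 56.5 bases and from CGCGTGA 65 and 60.5 bases. The same words were also measured in the opposite set of windows. TCAGCTG lay 114.5 and 129 bases from the summit in rep263A, in only 10 windows, and CACGTG 55.5 and 41.5 bases in rep217A. Each window is only 300 bases long, which limits these distances.

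Across all strong peaks the 2 groups shared most but not all of their places. Merging the strong peaks of the 4 libraries gave 14000 regions, of which 4103 (29.3%) were strong in all 4. Of the strong peaks of a library, 82.5% and 82.6% overlapped a strong peak of the other library of its own group in rep217A, and 86.4% and 85.4% did in rep263A. Between the groups the share was 64.1% to 64.6% of the rep217A peaks and 59.0% to 59.7% of the rep263A peaks. The overlap was lower between groups than within either group in each of these pairs. A further 1773 regions (12.7% of all) were strong in both rep217A libraries and in neither rep263A library, and 2412 (17.2%) the reverse. Most of these were still listed as weaker peaks in the other group: 1739 of the 1773 (98.1%) had a peak in both rep263A libraries, and 2214 of the 2412 (91.8%) in both rep217A libraries.

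The test on ranks used limma over the 14000 regions. It put 2798 regions (20.0%) higher in rep217A and 3626 (25.9%) higher in rep263A at a Benjamini-Hochberg adjusted p under 0.05. In each of these regions both libraries of one group ranked above both of the other. The same held in 4300 of the 7576 regions with no call. The median difference over all regions was -0.16. When all 4 libraries were thinned to the depth of the shallowest, 2199 and 2755 regions passed. Ranking by fold in place of −log10 q left 806 and 975. With 1 library left out limma called from 0 to 1663 regions for rep217A and from 0 to 2151 for rep263A, and the 0 came without rep217A replicate 2, where 5732 regions had an unadjusted p under 0.05.

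**Figure D3:**
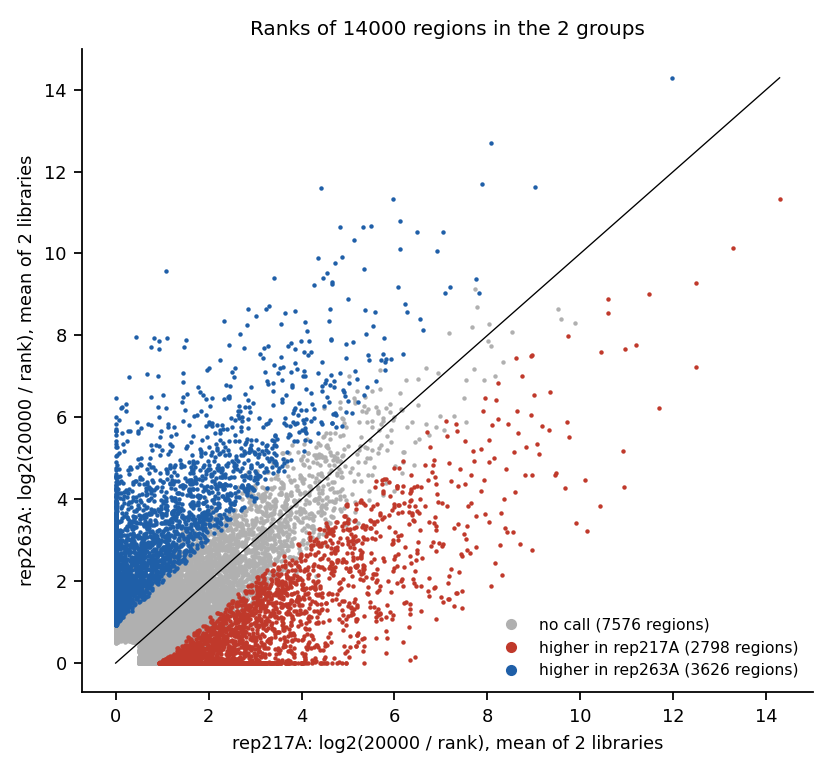
Mean log2(20000/rank) of each region in the rep217A libraries (x axis) and in the rep263A libraries (y axis), with 1 point per region and the line of equal rank. The 2798 regions called higher in rep217A lie below the line and the 3626 called higher in rep263A above it.

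At the very top of the lists, the 2 groups had a pair of regions in common. The first-ranked region of both rep217A libraries lay 257 bases from NAPA (chr19:47514879-47515692), a gene of vesicle fusion, and it ranked 12 and 5 in rep263A and 3 in all 3 WT libraries. In Empty it ranked 684, 389 and 1544. The region at PGK1 (chrX:78103743-78104378), a gene of glycolysis, ranked 5 in both rep217A libraries, 1 in both rep263A libraries and 1 in every WT library. It also ranked 2, 1 and 3 in Empty, and its difference turned from -2.32 to 3.35 when peaks were ranked by fold. A region 7675 bases inside CAPN3 (chr15:42404286-42405221), which encodes a calpain protease, ranked 7 in both rep217A libraries and 45 and 34 in rep263A. Its summit lay 122 bases from an annotated CAPN3 start.

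The other leading regions of rep217A stood well below the top of rep263A. A region 37297 bases from IER3 (chr6:30781306-30782195), an immediate-early gene, ranked 6 in both rep217A libraries and 215 and 331 in rep263A. A region 117017 bases from TSN (chr2:121884322-121885248), which encodes the nucleic acid-binding protein translin, ranked 4 and 3 against 178 and 99. The regions nearest to PGPEP1, TMCC2 and ST6GALNAC3 were also among the first 10, with ranks from 3 to 10 in rep217A and from 15 to 134 in rep263A. Of the regions in this paragraph only that of ST6GALNAC3 was strong in all 3 Empty libraries, at 6942, 39 and 1746.

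Leading regions of rep263A were likewise lower in rep217A. The region 208 bases from LITAF (chr16:11640021-11640970), a gene of endosomal and lysosomal membranes, ranked 7 and 6 in rep263A and 685 and 1281 in rep217A, with ranks 14, 23 and 19 in WT. The difference was -7.18 (SE 0.40, limma adjusted p = 0.00182). The region 930 bases inside DYRK1A (chr21:37365904-37366848), a protein kinase gene, ranked 14 and 11 against 687 and 732. Its summit lay 270 bases from an annotated DYRK1A start. Regions inside CEP295NL (3 and 3 against 72 and 76), EXTL1 (4 and 9 against 62 and 114), TMEM51 (10 and 4 against 37 and 40) and LOC122455342 (13 and 12 against 420 and 598), and one at ANKRD10 (9 and 14 in rep263A), were also among the first 10. Ranked by fold, the differences of CEP295NL, EXTL1, TMEM51, LOC122455342 and ANKRD10 changed sign, and those of LITAF and DYRK1A did not. All regions of this paragraph but that of LITAF were strong in all 3 Empty libraries too. Their Empty ranks ran from 11 (ANKRD10) to 5134 (TMEM51). LITAF ranked 25681, 3157 and 2431 in Empty.

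The largest single differences had ranks of 6 to 288 in both libraries of one group and lower places in the other. For rep217A these were led by ESCO1, a cohesin acetyltransferase gene, where a region 127 bases from the gene (chr18:21600057-21601180) ranked 24 and 13 against 2135 and 2172 (difference 6.93, SE 0.39, limma adjusted p = 0.00182). A region inside PYGB (chr20:25309636-25311054), which encodes a glycogen phosphorylase, ranked 13 and 8 against 898 and 1147. A region inside SULF2 (chr20:47682034-47683050), a heparan sulfate sulfatase gene, ranked 213 and 288 in rep217A, 17927 in 1 rep263A library and beyond 20000 in the other and in all 3 WT libraries, and it had no listed peak in any of the 3 Empty libraries. Regions with the nearest gene end at LYZL1 (14 and 15 against 791 and 2511), ADAMTSL4 (69 and 79 against 8273 and 3520), FARP2 (39 and 42 against 2643 and 3249) and TOMM20 (98 and 131 against 5866 and 10442) were of the same kind. They lay 1250 to 130377 bases from that gene end.

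For rep263A the largest difference lay in a region inside HTR2A (chr13:46866110-46866683), a serotonin receptor gene. It ranked 17 and 41 in rep263A, 39, 62 and 75 in WT and 11946 and 7393 in rep217A (difference -8.48, SE 0.52, limma adjusted p = 0.00182). No Empty library listed a peak there. The region near PKP1 (chr1:201334781-201335813), a desmosome gene, ranked 55 and 119 in rep263A, 11012 in 1 rep217A library and beyond 20000 in the other. Regions whose nearest gene end belonged to GPR42, PCDH7, LYPD6B, DOCK2, BRD1 or PRCD ranked from 50 to 229 in rep263A and from 7959 to beyond 20000 in rep217A. The distance was 863588 bases for PCDH7 and 310225 bases for BRD1, and 3003 to 73525 bases for the others, with the DOCK2 and PRCD regions inside the gene.

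Set against the rest of the series, the 2 sets of called regions differed in how often they were strong in other groups. Regions higher in rep217A were strong in 96.4% ± 0.18 (SD, n = 2) of cases in rep217A and 33.9% ± 0.68 in rep263A, values which the call itself fixed. In the 27 libraries of the other groups, which the call did not use, they were strong in 22.5% to 38.3%, and in WT in 37.7% ± 0.54 (SD, n = 3). Regions higher in rep263A were strong in 77.4% ± 2.97 of cases in WT, 82.7% ± 0.72 in A264C, 82.6% ± 0.94 in E260A, 84.7% ± 0.93 in N278D, 87.1% ± 2.14 in Q261A and 86.1% ± 1.23 in Y253A. The share was 56.7% ± 1.26 in K243A, 45.9% ± 0.86 in G244E (SD, n = 3 each) and at most 22.0% in an Empty library. K243A, G244E and Empty were also the 3 groups of lowest background pileup in the series, at 0.178, 0.129 and 0.030, and the part of depth in these shares was not tested. Regions with no call were strong in 53.2% ± 1.85 of cases in WT.

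**Figure D4:**
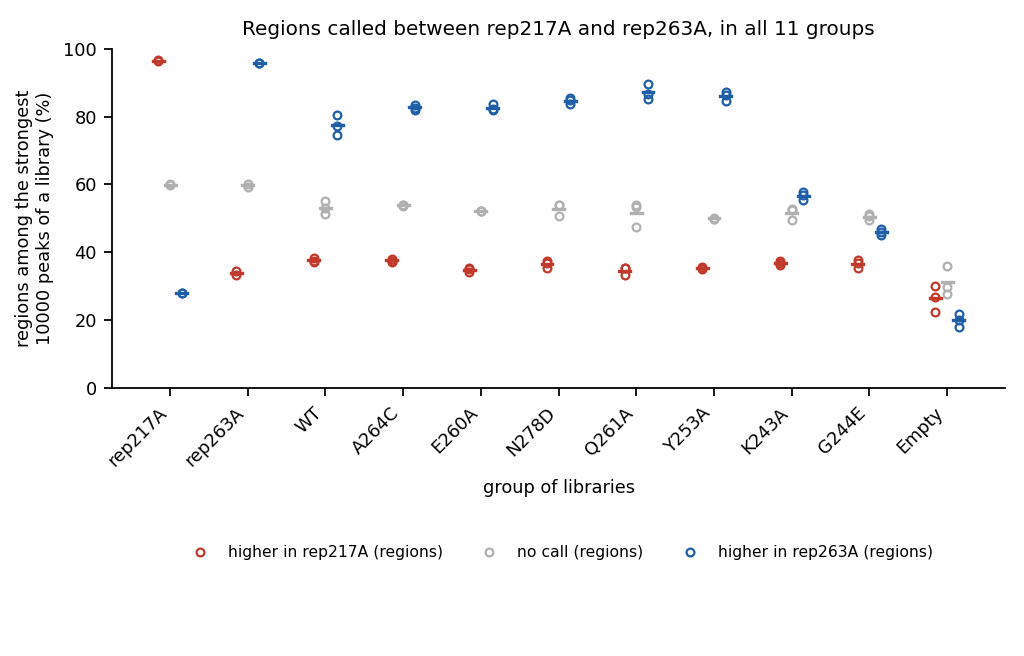
Share of the regions of each class (y axis, percent) that were among the strongest 10000 peaks of a library, for the 11 groups of the series, with 1 circle per distinct library and a bar for the group mean. The regions higher in rep217A were strong in under 39% of cases in every library outside rep217A, and those higher in rep263A were strong in over 74% of cases in each WT, A264C, E260A, N278D, Q261A and Y253A library.

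Coverage of the WT places differed accordingly. Of 7054 regions strong in all 3 WT libraries, 64.9% and 65.0% overlapped a strong peak in the rep217A libraries and 88.5% and 88.3% did in the rep263A libraries (64.9% ± 0.12 against 88.4% ± 0.17, SD, n = 2, exact permutation p = 0.333). Of 1264 regions strong in all 3 Empty libraries, 86.2% and 85.8% overlapped a strong rep217A peak and 78.9% and 79.5% a strong rep263A peak (86.0% ± 0.34 against 79.2% ± 0.45, exact permutation p = 0.333). Values near those of rep217A were also seen in G244E, at 67.7% of WT and 88.4% of Empty regions. K243A stood at 78.3% and 86.2%. The means of A264C, E260A, N278D, Q261A and Y253A ran from 82.1% to 96.5% of WT regions and from 72.9% to 80.4% of Empty regions. Among called regions, 911 of 2798 higher in rep217A (32.6%) and 2537 of 3626 higher in rep263A (70.0%) overlapped a WT region, and 3404 of 7576 with no call (44.9%) did. An Empty region lay under 9.22%, 5.93% and 9.35% of them.

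Gene ends were slightly more frequent in rep217A. Within 5000 bases of a protein-coding gene's start or end lay 46.2% and 44.9% of the strong peaks in rep217A and 41.8% and 40.9% in rep263A (45.5% ± 0.92 against 41.4% ± 0.63, SD, n = 2, exact permutation p = 0.333). A RefSeq promoter window lay under 22.7% of the regions higher in rep217A, 19.2% of those higher in rep263A and 34.1% of those with no call.

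For genes, the best peak with its summit within 5000 bases of either end was compared in 6400 protein-coding genes. limma put 1098 genes (17.2%) higher in rep217A and 1182 (18.5%) higher in rep263A. Of these 6400, 626 genes (9.78%) were strong in both rep217A libraries and neither rep263A library, and 658 (10.3%) the reverse. When ranked by fold, 237 and 104 of 6771 genes were called. Calls for rep217A were then the more numerous, the reverse of the first ranking. The median difference over all genes moved from 0.03 to 0.49. Of the first calls that could be tested by fold, 209 of 1029 for rep217A and 91 of 1059 for rep263A were called again in the same direction. Without any 1 library limma called no gene, with 1834 to 2361 genes at an unadjusted p under 0.05. Among the 10 largest gene differences in each direction, those with no region given above were AKR7A2, AGRP and ETV7 for rep217A, and PPP1R12B, CBFA2T2, CDC25B, CYGB and FTH1 for rep263A. AKR7A2 and AGRP have the same best peak as their neighbours SLC66A1 and ATP6V0D1. PPP1R12B, a myosin phosphatase gene, ranked 276 and 176 in rep263A and 12257 and 11434 in rep217A. FTH1, the ferritin heavy chain, ranked 22 and 20 in rep263A, 12, 15 and 13 in WT and 1013 and 945 in rep217A, but its difference changed from -5.54 to 1.77 when ranked by fold. CDC25B, a cell cycle phosphatase gene, ranked 238 and 403 in rep263A and beyond 20000 in both rep217A libraries.

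Lysosome and autophagy genes had calls in both directions. Of 22 genes in the list 19 were tested, 9 were higher in rep217A (47.4% beside 17.2% of all genes), 5 were higher in rep263A (26.3% beside 18.5%) and 5 did not pass, with a median difference of 1.05 beside 0.03 over all genes. The called subunits of the proton pump differed in direction. ATP6V1C1 ranked 144 and 91 in rep217A and 3005 and 3573 in rep263A (difference 4.84, SE 0.41, limma adjusted p = 1.43e-05). ATP6V0D1 is given above. ATP6V1A ranked 2906 and 2727 against 5506 and 9483. ATP6V1B2 ranked 2498 and 2542 in rep217A and 419 and 790 in rep263A, and by fold its difference was 0.11.

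The called enzymes, channels and membrane proteins of the lysosome differed in direction too. NEU1, the lysosomal sialidase, ranked 22 and 24 in rep217A and 325 and 587 in rep263A (difference 4.25, SE 0.42). CTSD, the protease cathepsin D, ranked 652 and 314 against 3627 and 4020. MCOLN1, a lysosomal calcium channel, ranked 848 and 488 against 10056 and 10777, so that it was strong in rep217A and not in rep263A. ACP5, an acid phosphatase, went the other way, with ranks of 8563 and 10471 in rep217A and 1460 and 1340 in rep263A. LAMP2, a lysosomal membrane protein, ranked beyond 20000 and 17220 in rep217A and 6030 and 8563 in rep263A.

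Genes of autophagosomes and of nutrient sensing were divided. MAP1LC3B, which encodes the autophagosome protein LC3B, ranked 240 and 121 in rep217A and 2548 and 1134 in rep263A, and UVRAG, a gene of autophagosome maturation, 347 and 181 against 2190 and 1642. RRAGC, a Rag GTPase of lysosomal nutrient sensing, ranked 101 and 166 in rep217A and 375 and 252 in rep263A. FLCN and FNIP1, whose products act on the Rag GTPases as a complex, were higher in rep263A. FLCN ranked 3727 and 5520 there and beyond 20000 and 14211 in rep217A. FNIP1 ranked 228 and 440 against 1311 and 827, and by fold its difference was 1.34. RRAGD, another Rag GTPase, did not pass, with ranks of 8506 and 7314 in rep217A and 13301 and beyond 20000 in rep263A. WIPI1, an autophagy gene among the best-ranked of the list, did not pass either.

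**Figure D5:**
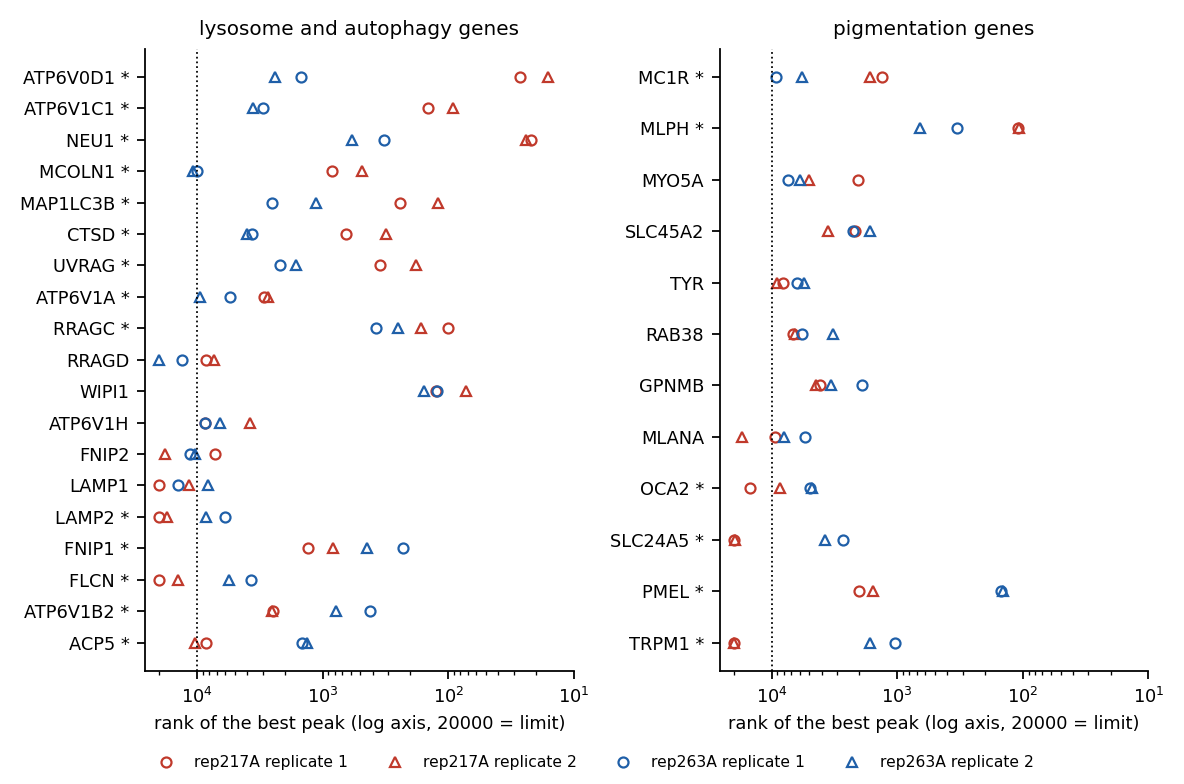
Rank of the best peak (x axis, log scale, rank 1 towards the right) in the 4 libraries for the tested lysosome and autophagy genes and pigmentation genes, sorted by difference, with a star for genes that passed limma and a dotted line at rank 10000. Of the lysosome genes 9 were called higher in rep217A and 5 higher in rep263A, and of the pigmentation genes 2 and 4.

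Pigmentation genes had 12 tested members of 16, of which 2 were higher in rep217A (16.7% beside 17.2% of all genes), 4 were higher in rep263A (33.3% beside 18.5%) and 6 did not pass (median -0.69). The rep217A share is near that of all genes. TRPM1, a melanocyte cation channel, ranked 1040 and 1658 in rep263A and beyond 20000 in both rep217A libraries (difference -3.93, SE 0.41, limma adjusted p = 3.79e-05). SLC24A5, a melanosome ion exchanger, ranked 2715 and 3793 in rep263A and beyond 20000 and 19550 in rep217A. OCA2, a melanosome transporter, ranked 4920 and 4740 against 14750 and 8644. PMEL, the protein of melanosome fibrils, ranked 150 and 145 in rep263A and 2015 and 1566 in rep217A. The best rep263A peak of PMEL is also that of its neighbour CDK2, and by fold the PMEL difference was 0.96. MLPH, an adaptor of melanosome transport, ranked 110 and 108 in rep217A and 336 and 659 in rep263A, and MC1R, the melanocortin receptor, 1321 and 1649 against 9244 and 5700. TYR, the key enzyme of melanin synthesis, did not pass, with ranks of 8092 and 9018 in rep217A and 6241 and 5567 in rep263A. All 4 libraries ranked TYRP1 and DCT beyond 20000.

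Lineage regulators were tested in 5 of 13 cases, with 2 higher in rep217A (40% beside 17.2% of all genes) and 1 higher in rep263A (20% beside 18.5%). SOX10, a neural crest transcription factor, ranked 3340 and 2098 in rep217A, 18978 and beyond 20000 in rep263A and 15990, 15886 and 15164 in WT (difference 2.88, SE 0.41, limma adjusted p = 3.03e-04). IRF4, a transcription factor that MITF acts on in melanocytes, ranked 643 and 615 against 1905 and 1610. SNAI2, a repressor of epithelial genes, ranked 2123 and 3269 in rep263A and 18206 and 10372 in rep217A. MITF itself was strong in rep217A, at 7890 and 8599, and not in rep263A, at 16448 and 14410, but its difference of 0.90 did not pass (limma adjusted p = 0.0861). When summits anywhere in a gene counted, the MITF difference was -2.63 and passed, as higher in rep263A (limma adjusted p = 0.00149).

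Genes of survival, cell cycle and metabolism had 12 tested of 16, with 4 higher in rep217A (33.3% beside 17.2% of all genes) and 3 higher in rep263A (25% beside 18.5%). HIF1A, the hypoxia factor, ranked 167 and 157 in rep217A and 1976 and 3449 in rep263A (difference 4.01, SE 0.42). CDKN1A, an inhibitor of cyclin-dependent kinases, ranked 336 and 265 against 2735 and 1962. MCL1, an anti-apoptotic gene, ranked 3805 and 2652 against 12704 and 15074, and APEX1, a DNA repair gene, 155 and 136 against 393 and 280. BIRC7, an inhibitor of apoptosis, ranked 1437 and 2470 in rep263A and beyond 20000 and 12494 in rep217A. CDK4 ranked 345 and 70 against 430 and 876, and CDK2 150 and 145 against 330 and 451. By fold the differences of CDK4 and CDK2 were 1.46 and 1.29. With summits within 1000 bases of a gene end, the CDK2 difference was 4.40 and passed, as higher in rep217A (limma adjusted p = 6.34e-04). BCL2, another anti-apoptotic gene, did not pass, at 6293 and 9158 in rep217A and 11982 and 11295 in rep263A. SCD, a fatty acid desaturase gene, did not pass either, at 10326 and 16033 against 8434 and 5289.

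Feedback genes of the MAPK pathway had 8 tested of 14, with 4 higher in rep217A (50% beside 17.2% of all genes) and 1 higher in rep263A (12.5% beside 18.5%). FOS ranked 413 and 409 in rep217A and 2621 and 7424 in rep263A (difference 3.42, SE 0.49), and ETV4, an ETS factor gene, 1350 and 1968 against 10386 and 14642. EGR1 and IER3 were strong in both rep217A libraries and in neither rep263A library, with IER3 at 3464 and 2679 against 17661 and 10462. SPRY2, a receptor kinase antagonist, ranked 1051 and 472 in rep263A and 3591 and 4160 in rep217A. Among 10 tested E-box factor genes 1 passed in each direction (10% beside 17.2% and 18.5% of all genes). BHLHE40 was higher in rep217A (368 and 163 against 1010 and 1183) and MNT higher in rep263A (615 and 618 against 2535 and 2250). Of 7 tested genes of the invasive melanoma state 1 passed (14.3% beside 18.5% of all genes), FOSL2, which was higher in rep263A (1041 and 756 against 2553 and 2319) and whose difference by fold was 0.32. FOSL1 (5616 and 7413 against 13304 and 10478) and CCN1 (7681 and 8682 against 12130 and 17811) were strong in both rep217A libraries and in neither rep263A library, and neither passed.

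Control lists had calls too. Of 14 tested housekeeping genes 2 were higher in rep217A (14.3% beside 17.2% of all genes), TUBB among them. In rep263A 4 were higher (28.6% beside 18.5%), B2M, PSMB4, PGK1 and PPIA. By fold PPIA and PGK1 changed sign. SDHA was strong in rep263A alone, at 9781 and 5570 against 11640 and 14045, and did not pass. Genes of other lineages were mostly without a strong peak. Of the hepatocyte list 1 of 12 was tested, of the keratinocyte list 2 of 11 found, and of the lymphoid list 3 of 12, and in each list 1 gene passed. AHSG, a liver plasma protein gene, ranked 8986 and 6954 in rep263A. LCK, a T cell kinase gene, ranked 2914 and 2338 in rep263A and 2197, 3688 and 2823 in WT, and beyond 20000 in both rep217A libraries. CDSN, a keratinocyte adhesion gene, ranked 6665 and 4107 in rep217A and beyond 20000 in both rep263A libraries.

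The best-ranked list members without a call had overlapping or close ranks in the 2 groups. SLC45A2, a melanosome transporter gene, ranked 2189 and 3571 in rep217A and 2256 and 1659 in rep263A. HEY1, an E-box factor gene, ranked 1303 and 851 against 1622 and 2884, and JUN, a partner of FOS, 1655 and 1297 against 893 and 993. ETV5, an ETS factor gene, ranked 3553 and 2362 against 2555 and 2600, and EEF1A1, a translation factor gene, 1259 and 1942 against 1788 and 1913. SOX9, SPRR1B, CD3E and CD79A also did not pass. TTR, FGA and KRT14 had no strong peak in the 4 libraries and were not tested.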

How the data were processed

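CUT&Tag libraries of UACC-257 cells were deposited as peak lists, 1 per library. Per the submitters' processing notes the build was hg38 and the tools were MACS2 (version not given), Bowtie2 2.3.4.3 and bcl2fastq 2.20.0.422. The control, the removal of duplicates and the peak threshold are not given in the sources used here. Each deposited list gives the authors' fold (a ratio of summit pileup to local background), −log10 p and −log10 q, a display score and a summit offset per peak. The score was not used. Read totals are not in the lists. The whole-number pileup and the background behind each peak were recovered from the deposited fold and −log10 p.

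Peaks on chromosomes 1 to 22 and X were ranked by −log10 q. Values of log2(20000/rank) were fitted with limma 3.58.1 in R 4.3.3 on 4 distinct libraries, without a replicate block, with Benjamini-Hochberg adjustment at 0.05, for regions (merged strongest 10000 peaks) and genes (summit within 5000 bases of an end). Library shares used exact two-sided permutation tests. The scripts were tested on simulated data. Thinning drew pileups binomially to 0.276 (seed 1). Genes, with their positions, and promoter sequences came from RefSeq GRCh38.p14. Lists hold 167 genes, of which 1 symbol was not found.

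Named were the 10 regions of best mean rank in each group, the 10 regions and 10 genes of largest difference in each direction, list genes that passed or were strong in 1 group only, the 3 best-ranked per list, and MITF. Some items that this rule names are not reported here. Other genes are named as examples chosen after their values were seen. The members, lists and words were chosen with earlier results of these data known. Alternatives were other numbers of strong peaks, rank by fold, rank limit 10000, thinning, all libraries of the series in the fit, 50% overlap, other gene windows, a replicate block and each library left out. limma with trend, a threshold on −log10 p and the word shares under fold ranking and thinning were added after seeing the data.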

Additional observations from a re-analysis of the deposited data

How the results depend on the processing

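With peaks ranked by fold, regions called fell to 806 and 975 and genes to 237 and 104 (rep217A and rep263A in that order, as below). A rank limit of 10000 gave 1631 and 2043 regions and 708 and 726 genes. Left-out libraries gave 0 to 1663 and 0 to 2151 regions and 0 genes in both directions, with the lone library of a group assumed to vary like the others. They gave 2114 to 2757 and 2927 to 3275 regions strong in 1 group only. Without rep217A replicate 2 no region was called, and without replicate 1 of that group 1663 and 789 were. A replicate block gave 3239 and 4094 regions and 1238 and 1323 genes, but same-numbered libraries did not deviate together (r = -0.00855 across 14000 regions), so the numbers do not pair them. Under the block, the exact sign-flip test of the shares cannot go below p = 0.5. The 5000 strongest peaks gave 1162 and 1493 regions strong in 1 group only, and the 20000 strongest 3902 for rep263A. Overlap between groups minus within was -28.7 points at 5000 and -17.0 at 20000. All listed peaks turned the log2 difference of peak number to 0.24 (from -0.88).

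The difference in mean number of strong genes, rep217A minus rep263A, moved or turned in these cases. By fold it was 1 for pigmentation, 4.5 for lysosome, 1.5 for housekeeping and 0 for lymphoid genes. At 5000 it was 1 for lysosome genes and 0 for lineage, E-box factor and invasive genes. At 20000 it was -2.5 for lysosome, -0.5 for invasive, -1 for MAPK and 0 for housekeeping genes. With 1000 bases it was -1.5 for pigmentation and 0 for housekeeping and lymphoid genes, with whole genes -2 for survival and 0 for invasive genes, and after thinning 0.5 for E-box factors.

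Single differences changed sign by fold for ATP6V1B2 (0.11), CDK2 (1.29), CDK4 (1.46), FNIP1 (1.34), FOSL2 (0.32), FTH1 (1.77), PGK1 (3.35), PMEL (0.96) and PPIA (1.15), and for regions at CEP295NL (1.04), EXTL1 (1.33), TMEM51 (1.98), ANKRD10 (0.59) and LOC122455342 (3.07). Of these, PGK1 and the LOC122455342 region passed by fold (limma adjusted p = 0.0249 and 0.0282). Within 1000 bases CDK2 was 4.40 (limma adjusted p = 6.34e-04) and MNT 0.34 (limma adjusted p = 0.521). With whole genes MITF was -2.63 (limma adjusted p = 0.00149). The cause was not tested. Over promoters with a strong peak, the shares of TCAGCTG, and those of CACGTG and CGCGTGA, kept their direction by fold, after thinning and without each library. Among called windows the CACGTG share turned by fold, to 31 of 239 windows for rep217A and 6 of 64 for rep263A. The 2 groups differ in depth, and ranks do not remove that.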
